A study of Caenorhabditis elegans with 4 samples.

Results

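The miR-229/64/65/66 cluster is a group of 4 microRNA (miRNA) hairpin genes on chromosome III of *C. elegans*, and 5 mature miRNAs from it were measured among the 66 listed in small RNA libraries from ALG-1 and ALG-2 co-immunoprecipitations (co-IPs). The members were taken by genome position. They are miR-229-5p, miR-229-3p, miR-64-5p, miR-65-5p and miR-66-5p, where 5p and 3p name the arm of the hairpin that the mature miRNA comes from. The co-IPs came from whole animals grown at 20°C, with no further treatment stated, and collected on day 5 of adulthood. Per the methods of the study, eggs and larvae had been removed, and how completely was not tested here. One strain carried FLAG::GFP::ALG-1 (PQ530) and the other FLAG::RFP::ALG-2 (PQ582), both made by editing the endogenous gene, and the FLAG antibody was used for both. Each strain derived from 1 edited line, and PQ530 was backcrossed to the N2 strain more times than PQ582. The fluorescent tag also differs between the strains. Effects of the tag, the strain background and the protein therefore cannot be told apart. Each protein has 2 libraries from independent RNA samples, called A and B here because the columns carry no replicate number. No input RNA or untagged strain was analysed here.

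A miRNA is cut from a hairpin precursor as a short duplex, of which one strand is usually kept by an Argonaute protein such as ALG-1 or ALG-2. The retained miRNA recognises target RNAs mainly through its seed, a few bases near its 5' end. miR-64-5p, miR-65-5p, miR-66-5p and miR-229-5p belong to one seed family in *C. elegans*, together with miR-63-3p, which is encoded on the X chromosome. The mature sequences of miR-64-5p and miR-65-5p are so close that the division of reads between these miRNAs is uncertain.

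The 4 hairpins lie within 755 bp of the WBcel235 assembly. In order of position they are *mir-229* (chromosome III, 2172452-2172566), *mir-64* (2172848-2172957), *mir-65* (2173002-2173101) and *mir-66* (2173108-2173206). The gaps between them are 281, 44 and 6 bp, so that *mir-65* and *mir-66* are the closest neighbors. All 4 lie within the span of *gcn-1* (chromosome III, 2151945-2197908), whose yeast counterpart, GCN1, activates the stress kinase GCN2. The gene table used does not tell exons from introns or give strands.

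**Figure D1:**
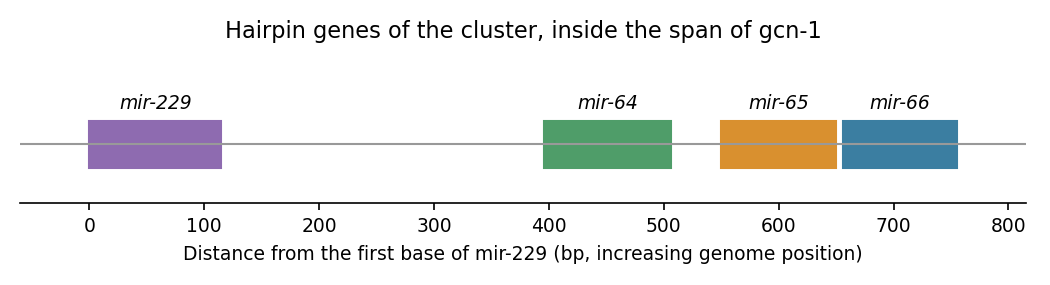
Map of the 4 hairpin genes, drawn to scale as boxes along the distance in bp from the first base of *mir-229*. *mir-64*, *mir-65* and *mir-66* sit close together, with gaps of 44 and 6 bp, and *mir-229* lies 281 bp before *mir-64*.

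The libraries rested on 6428905 to 25703472 reads, and the 66 miRNAs took 99.3% to 99.5% of each library. miR-44-3p and miR-45-3p held identical values in every library, so the 66 miRNAs are not all independent values. The lowest read number behind a value of the cluster was 1916, for miR-229-3p in ALG-1 library B, which gives a relative counting error of 2.28%. Here and for the intervals below, counting error leaves out duplication by PCR, which no molecular identifier recorded. The libraries of one protein differed far more than this. The median absolute log2 difference between libraries A and B over all 66 miRNAs was 0.34 for ALG-1 and 0.90 for ALG-2.

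By the mean of either protein, miR-65-5p and miR-64-5p were the most abundant members, although miR-66-5p exceeded both in ALG-2 library B. Values are RPM, the reads of a miRNA after each library is scaled to a total of 1000000 reads. For miR-65-5p, ALG-1 library A held 11643 RPM, ALG-1 library B 17279, ALG-2 library A 40456 and ALG-2 library B 8637 RPM. For miR-64-5p the values were, in the same order of libraries, 10383, 11679.6, 37029 and 7978 RPM. For both, ALG-2 library A was the highest of all libraries and ALG-2 library B the lowest, with the ALG-1 libraries in between, so the groups overlapped. Among the 66 miRNAs of each library, miR-65-5p ranked sixth in ALG-2 library A but held rank 20 in ALG-2 library B, and ranks 18 and 14 in the ALG-1 libraries.

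miR-229-5p was rarer and followed the same order of the ALG-2 libraries. Its ALG-1 values were 2738 and 1822 RPM, and its ALG-2 values 6118 and 1384 RPM. miR-229-3p, from the opposite arm of the same hairpin, was the least abundant member, with ALG-1 values of 197 and 298 RPM and ALG-2 values of 457 and 143 RPM. Again the values of ALG-2 library A lay above and those of ALG-2 library B below both ALG-1 libraries.

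miR-66-5p did not follow this order. Its ALG-1 values were 6136 and 4595 RPM, and its ALG-2 values 10363 and 10961 RPM. Both ALG-2 values lay above both ALG-1 values, and the ratio of ALG-2 library A to B was 0.945. miR-66-5p was the only member whose groups did not overlap.

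**Figure D2:**
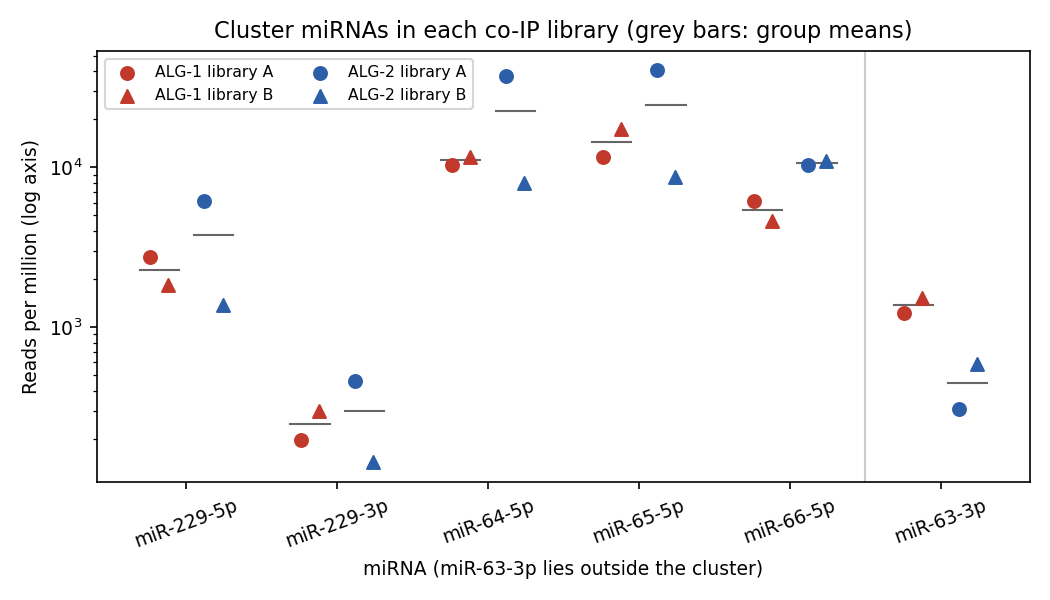
RPM on a log axis for the 5 cluster miRNAs and the seed relative miR-63-3p, with 1 point for each library (circles, library A; triangles, library B) and grey bars for the mean of 2 libraries. ALG-2 library A is highest and ALG-2 library B lowest for 4 members, whereas miR-66-5p lies near 10363 and 10961 RPM in both ALG-2 libraries.

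To ask whether the cluster associated more with one Argonaute, the ALG-1 and ALG-2 libraries were compared. In whole animals, a stronger association with one protein and expression of that protein in more of the cells that make the miRNA cannot be told apart. The mean level of miR-66-5p was 5366 ± 1089.9 RPM in the ALG-1 co-IPs, compared to 10662 ± 423 RPM in the ALG-2 co-IPs (SD, n = 2 each). Dividing either ALG-2 library by either ALG-1 library gave ratios of 1.69, 1.79, 2.26 and 2.39. A miRNA was called enriched when all 4 ratios exceeded 1.5 in one direction, and miR-66-5p was the 1 of 5 members enriched with ALG-2, compared to 16.7% of all 66 miRNAs. No member, 0 of 5, was enriched with ALG-1, compared to 13.6% of all miRNAs. By the weaker requirement that the groups do not overlap, 1 of 5 members was higher with ALG-2 and 0 of 5 with ALG-1, compared to 25.8% and 27.3% of all miRNAs. With 5 members, these counts are close to the shares over all miRNAs.

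In limma, which tests the difference of log2(RPM + 1) against the spread between libraries, none of the 5 members passed an adjusted p-value of 0.05. Over the whole table, 0% of the 66 miRNAs passed as higher in the ALG-1 co-IPs and 1.52% as higher in the ALG-2 co-IPs. Before adjustment, 0 of the 5 members had a p-value below 0.05, whereas 7 and 10 of the 66 miRNAs did toward ALG-1 and ALG-2. For miR-66-5p the log2 ratio of ALG-1 to ALG-2 was -1.01 ± 0.48 (SE), with a 95% interval from -2.18 to 0.17 and a limma adjusted p of 0.282. The interval includes 0.

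miR-64-5p, miR-65-5p and miR-229-5p also had higher means in the ALG-2 co-IPs, where the SD was close to the mean itself. The means of miR-64-5p were 11031 ± 917 RPM in the ALG-1 co-IPs and 22503 ± 20542 RPM in the ALG-2 co-IPs (SD, n = 2 each). On the log2 scale the difference was -0.64 ± 0.78 (SE, 95% interval from -2.55 to 1.26, limma adjusted p = 0.677). Those of miR-65-5p were 14461 ± 3985 and 24547 ± 22499.5 RPM, a log2 difference of -0.40 ± 0.79 (SE, limma adjusted p = 0.815). For miR-229-5p the means were 2280.3 ± 648 and 3751 ± 3347 RPM, with a log2 ratio of -0.38 ± 0.80 (SE, limma adjusted p = 0.815). The mean difference was smallest for miR-229-3p, whose means were 248 ± 71.3 and 299.8 ± 222 RPM, with a log2 ratio of -0.08 ± 0.77 (SE, limma adjusted p = 0.940).

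The direction of these 4 members depended on which ALG-2 library was used. Without ALG-2 library A, the log2 ratios were 0.46 for miR-64-5p, 0.72 for miR-65-5p, 0.69 for miR-229-5p and 0.76 for miR-229-3p, all toward ALG-1. Without ALG-2 library B they were -1.75, -1.51, -1.45 and -0.91, all toward ALG-2. At that setting 5 of 5 members passed the enrichment rule toward ALG-2, as did 18 of all 66 miRNAs, compared to 11 of 66 with all libraries. miR-66-5p stayed at -1.05 without ALG-2 library A and -0.96 without ALG-2 library B. The sign for miR-229-3p also changed without ALG-1 library A, to 0.22.

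The median log2 ratio of the 5 members was -0.40 (from -1.01 to -0.08), and that of all 66 miRNAs was 0.13 (from -3.67 to 2.11). All 5 members had a negative ratio, as did 30 of the 66 miRNAs. The median over all miRNAs moved from 0.13 to 0.02 when the libraries were scaled by TMM, a trimmed mean of log ratios, and the members moved with it, to -1.12 for miR-66-5p and -0.19 for miR-229-3p.

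**Figure D3:**
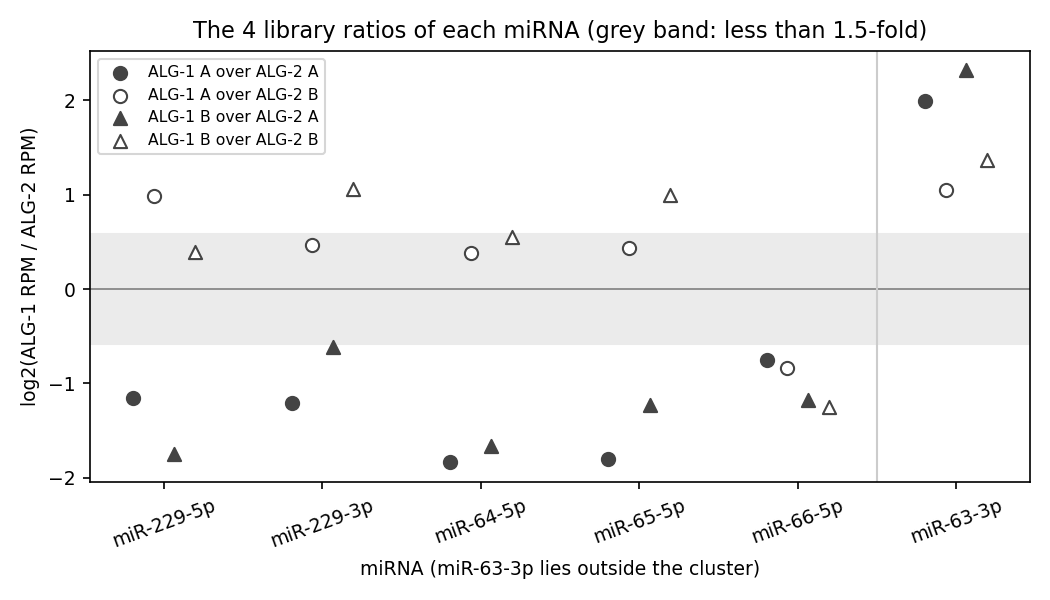
log2 of the ratio of an ALG-1 to an ALG-2 library for each of the 4 library combinations (circles and triangles, ALG-1 libraries A and B; filled and open, ALG-2 libraries A and B), with a grey band for differences below 1.5-fold. The filled points lie below 0 and the open points above 0 for 4 members, whereas all points of miR-66-5p lie below the band and all points of miR-63-3p above it.

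The difference between the ALG-2 libraries was one of the larger ones in the table for 4 of the members. ALG-2 library A exceeded ALG-2 library B 4.68-fold for miR-65-5p, 4.64-fold for miR-64-5p, 4.42-fold for miR-229-5p and 3.20-fold for miR-229-3p. Ordered by this log2 ratio from the highest, these held places 6, 7, 9 and 12 of 66. miR-66-5p held place 38, with a ratio of 0.945. Between the ALG-1 libraries, in contrast, the ratios of the other 4 members were closer to 1 and not in one direction. For miR-66-5p the ratio was farther from 1 between the ALG-1 libraries than between the ALG-2 libraries. ALG-1 library A was higher than B for miR-229-5p (1.503-fold) and miR-66-5p (1.34-fold), and lower for miR-64-5p (0.889), miR-65-5p (0.674) and miR-229-3p (0.662). ALG-2 library A rested on 12401622 reads and ALG-2 library B on 25703472 reads, and the part of depth in the difference was not tested.

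**Figure D4:**
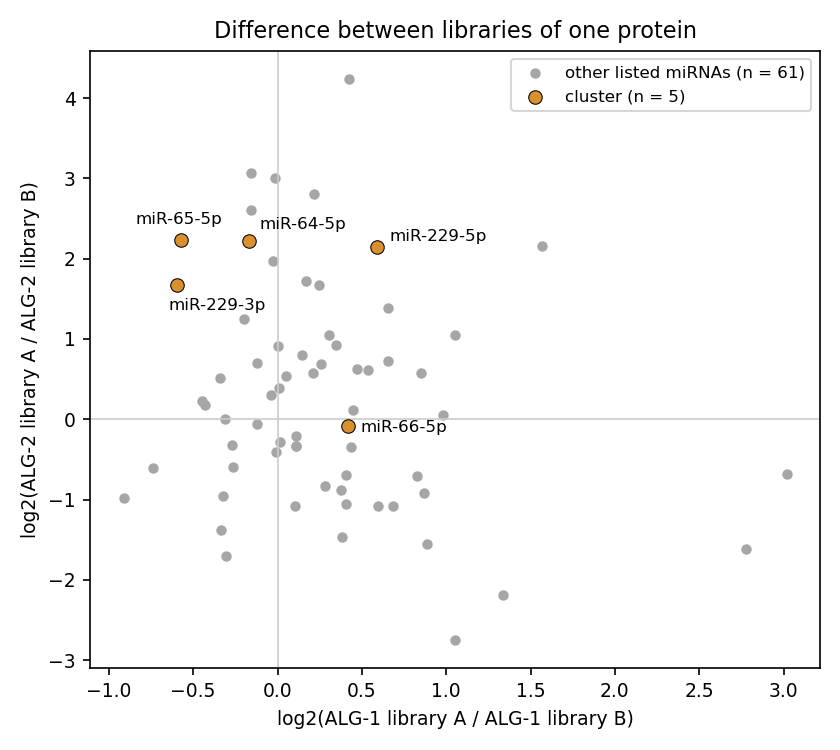
Each point is 1 of the 66 miRNAs, with the log2 ratio of ALG-1 library A to B on the x axis and of ALG-2 library A to B on the y axis. The cluster (orange) lies at 1.68 to 2.23 on the y axis, except for miR-66-5p at -0.08.

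When the 4 members from the 5p arm were summed, the family took 3.09% and 3.54% of the ALG-1 libraries, and 9.40% and 2.90% of the ALG-2 libraries. The 95% Wilson intervals of these shares were 3.08% to 3.10%, 3.52% to 3.55%, 9.38% to 9.41% and 2.89% to 2.90%, so the shares of all libraries differed beyond counting error. The mean of the sum was 33138 ± 3164 RPM in the ALG-1 co-IPs, compared to 61463 ± 45965 RPM in the ALG-2 co-IPs (SD, n = 2 each). The log2 ratio of ALG-1 to ALG-2 was -0.66 ± 0.85 (SE), and an exact two-sided permutation test gave p = 1, where the smallest possible p with 2 libraries against 2 is 0.333. Without ALG-2 library A the log2 ratio was 0.19, and without ALG-2 library B it was -1.51. The difference between the proteins was thus smaller than the spread between the ALG-2 libraries.

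The make-up of the family differed among libraries, mainly in the share of miR-66-5p. miR-66-5p made up 19.9% and 13.0% of the 5p sum in the ALG-1 libraries, 11.03% in ALG-2 library A and 37.8% in ALG-2 library B, where it was the most abundant member. Everywhere else miR-65-5p came first, at 37.7% and 48.8% with ALG-1 and 43.1% in ALG-2 library A, compared to 29.8% in ALG-2 library B. miR-64-5p ranged from 27.5% to 39.4% and miR-229-5p from 4.78% to 8.86%. The 95% Wilson interval of any of these shares reached at most 0.205 percentage points to either side. None of the shares separated the ALG-1 from the ALG-2 libraries.

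**Figure D5:**
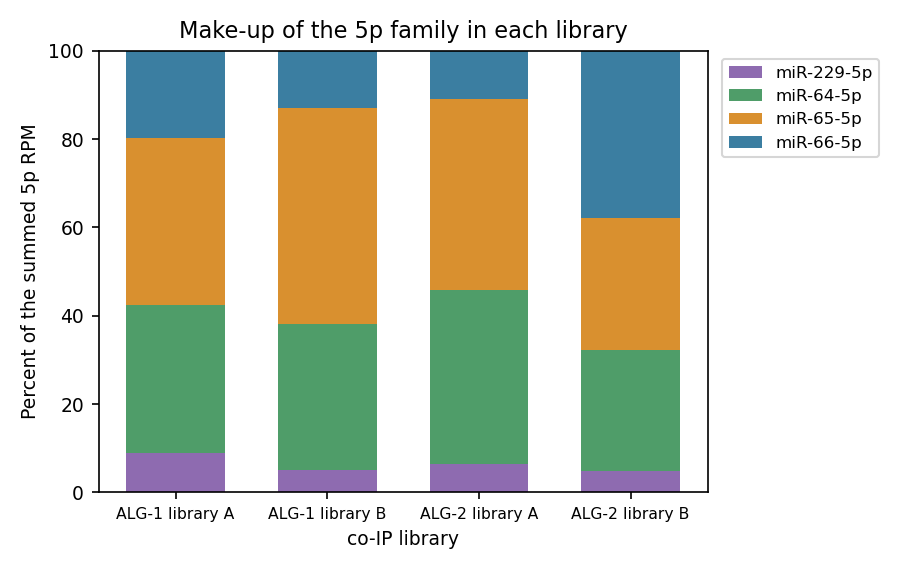
Stacked bars give the percent of the summed 5p RPM that each member contributed in each library, with 1 bar per library and a total of 100. miR-66-5p fills 37.8% of ALG-2 library B and 11.03% to 19.9% of the others.

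Ratios of members within a library do not depend on how the libraries were scaled, and all 6 pairs of 5p members were compared in this way. The groups overlapped for 5 pairs. The ratio of miR-64-5p to miR-66-5p was 1.69 and 2.54 with ALG-1 but 3.57 and 0.728 with ALG-2, and that of miR-65-5p to miR-66-5p was 1.897 and 3.76 with ALG-1 but 3.90 and 0.788 with ALG-2. In both cases the ALG-2 libraries gave the highest and the lowest value. The pair without overlap was miR-64-5p and miR-65-5p, with ratios of 0.892 and 0.676 in the ALG-1 libraries and 0.915 and 0.924 in the ALG-2 libraries. The log2 difference for this pair was -0.24 ± 0.20 (SE), and the exact permutation p of 0.333 became 1 after adjustment over the 6 pairs. As these sequences are close, the assignment of reads could also differ between libraries, which was not tested.

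The arms of the *mir-229* hairpin were compared next, since strand choice can also be read within a library. miR-229-5p exceeded miR-229-3p in all libraries, 13.9-fold and 6.11-fold with ALG-1 and 13.4-fold and 9.70-fold with ALG-2. The 3p arm thus made up 6.72% (95% Wilson interval 6.46% to 6.99%) and 14.1% (13.5% to 14.6%) of the miR-229 reads in the ALG-1 libraries. In the ALG-2 libraries it made up 6.95% (6.78% to 7.12%) and 9.35% (9.07% to 9.64%). Both ALG-2 values lay between the ALG-1 values, so the widest gap was between the libraries of one protein. The log2 difference in the arm ratio was -0.31 ± 0.64 (SE), with an exact permutation p of 1. Its sign turned to 0.29 without ALG-1 library B, and its size fell to -0.07 without ALG-2 library A and reached -0.90 without ALG-1 library A. Between the ALG-2 libraries, the arms moved together (4.42-fold for the 5p arm and 3.20-fold for the 3p arm), whereas between the ALG-1 libraries they moved in opposite directions (1.503-fold and 0.662-fold).

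*mir-80* is the only other hairpin with both arms among the 66 miRNAs, and there the 3p arm dominated, taking 97.3% to 99.2% of the reads. Its log2 ratio of 5p to 3p was -6.16 and -6.91 with ALG-1 and -5.49 and -5.15 with ALG-2, so for this hairpin the groups did not overlap (log2 difference -1.22 ± 0.41 SE, exact permutation p = 0.333).

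miR-63-3p, the seed relative encoded outside the cluster (*mir-63*, chromosome X, 17598765-17598868), lay on the side opposite to miR-66-5p. Its ALG-1 values were 1221 and 1524 RPM, its ALG-2 values 305 and 589.8 RPM, and all 4 of its ratios exceeded 1.5 toward ALG-1. The log2 ratio was 1.68 ± 0.60 (SE), with a limma adjusted p of 0.153. Relative to the 5p sum of the cluster in the same library, miR-63-3p stood at 3.95% and 4.31% in the ALG-1 libraries but at 0.325% and 2.04% in the ALG-2 libraries. These groups were separate, with a log2 difference of 2.34 ± 1.33 (SE). Relative to miR-66-5p alone, the ratio was 0.199 and 0.332 with ALG-1 and 0.0295 and 0.0538 with ALG-2, a log2 difference of 2.69 ± 0.57 (SE). Both differences had an exact permutation p of 0.333, the smallest that this design allows. The separation relative to miR-66-5p was bound to arise, since the RPM groups of both miRNAs were already separate, in opposite directions. Its p therefore adds no test beyond those RPM values. In the observed values of these 4 libraries, miR-63-3p thus followed neither the order of miR-66-5p nor that of the other members.

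To describe how alike the members were, log2(RPM + 1) profiles over the 4 libraries were centered on their own mean and compared by their root mean square distance. The distance was 0.19 between miR-64-5p and miR-65-5p, and from 0.25 to 0.47 among the other pairs of miR-64-5p, miR-65-5p and the miR-229 arms. miR-66-5p was 0.85 to 0.94 away from these members, whereas the median over all 2145 pairs of miRNAs was 0.98. Thus miR-65-5p and miR-66-5p, whose hairpins are 6 bp apart, were less alike than any other pair of members from the 5p arm. miR-63-3p was farther still, at 1.28 to 1.61 from the members.

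For miR-64-5p, miR-65-5p and both arms of miR-229, the nearest of all listed miRNAs was another member of the cluster. miR-65-5p was nearest to miR-64-5p and to miR-229-3p, and miR-64-5p to miR-65-5p and to miR-229-5p. The nearest to miR-66-5p was miR-86-5p, at 0.18. The profile of the 5p sum was compared only to miRNAs outside the sum, so its own 5p members were left out. Among those, it was nearest to miR-229-3p (0.32), miR-72-5p (0.47) and miR-77-3p (0.50). These distances rest on 4 libraries, and the members share the libraries and, for miR-64-5p and miR-65-5p, closely related sequences.

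The range within the cluster was also set beside those of the other groups of neighboring miRNA genes in the table. A range tends to widen with the number of values, and the groups differ in size. This cluster has 5 listed miRNAs, and the others have from 2 to 6, most of them 2 or 3. The order below is not adjusted for size. When listed hairpins less than 5 kb apart were grouped, 9 clusters with at least 2 hairpins were found. The log2 ratios of ALG-1 to ALG-2 spanned 0.93 within this cluster, the fourth widest range of the 9, which ran from 0.17 to 2.55. The log2 ratios of ALG-2 library A to B spanned 2.31, the fifth widest, in a range of 0.34 to 5.12.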

How the data were processed

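Small RNAs from 4 co-IP libraries were analysed. Per the methods of the study, the authors removed adapters (cutadapt, per the labels), mapped reads to the WS261 genome with miRDeep2 and quantified them on miRBase release 21; tool versions are not given in the sources used here. The deposited values are RPM, for which the authors scaled each library to 1000000 reads, so the value of one miRNA depends on those of the abundant ones. The study left out miRNAs below 1000 reads across the libraries. The lowest sum listed is 1003 RPM, which is another unit. It belongs to miR-795-5p, with 1627 to 6977 recovered reads in each library.

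All values of a column were whole multiples of one step, to within 1.07e-08 of a read, and the depth was read from this step. The recovered reads give counting errors and Wilson intervals only; no count model was fitted. limma 3.58.1 (R 4.3.3) was run on log2(RPM + 1) of all 66 miRNAs with a variance trend, no block and Benjamini-Hochberg adjustment. Ratios within a library and sums were compared by exact permutation tests with scipy 1.17.1. The enrichment rule, the scalings and the recovery of depth were checked on simulated data. limma was also run on simulated data, but with the same spread for every miRNA and library. The real ALG-2 libraries differed more than the ALG-1 libraries, so those simulations do not show how limma performs here.

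Groups came from the sample titles. The columns name the protein but not the replicate, so the enrichment rule requires all 4 ratios above 1.5. The members, the alternatives and the rule for named miRNAs (the members, seed relatives, hairpins with both arms listed, and the nearest profiles) were chosen with earlier results of these data known. Seed relatives were to be found from the mature sequences. None were at hand, so the family was taken from general knowledge. Hairpin positions are from RefSeq (WBcel235), which matched 63 of the 66 miRNAs by symbol; the gene table has no strand, so clusters were formed by distance alone.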

Additional observations from a re-analysis of the deposited data

How the results depend on the processing

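By the enrichment rule, 1 member (miR-66-5p) passed toward ALG-2. At a 2-fold threshold the count was 0, the ratio of group means gave 4 (the 5p members), and leaving out a library gave from 1 to 5. Of all 66 miRNAs, 11 passed toward ALG-2 at first, 9 at 2-fold, 22 by group means and 11 to 18 with a library left out. The other alternatives gave 1, with miR-66-5p each time. No member was enriched with ALG-1 in any of the 12 alternatives, and none passed limma in any of the 14. For the members and miR-63-3p, limma adjusted p ranged from 0.0504 to 0.991. Leaving out each library in turn moved the log2 ratios over -1.45 to 0.69 (miR-229-5p), -0.91 to 0.76 (miR-229-3p), -1.75 to 0.46 (miR-64-5p) and -1.51 to 0.72 (miR-65-5p). Without ALG-2 library A the 5p sum moved from -0.66 to 0.19. No other alternative changed the sign of a member. Pairs of 5p members without overlap numbered 3 to 4 with a library left out and 1 otherwise, because fewer values must separate. The columns carry no replicate number. A replicate block with pairs by running number left the log2 ratio of the 5p sum at -0.66 (SE of the paired difference 0.95, and 0.75 with crossed pairs) and 0 members past limma. The deviations of these pairs correlated at -0.21 over the 66 miRNAs. With 2 libraries per protein, crossed pairs must give the same value with the opposite sign, 0.21. With crossed pairs, the number of all miRNAs past limma went from 0 and 1 (ALG-1 and ALG-2) to 2 and 5. In that fit limma also pooled the variances more, with median total degrees of freedom of 66, compared to 6.05 in the main fit. The part of this pooling in the counts was not tested. The count test on recovered reads was not run, because the rule for using such reads as counts asks for more values than the 66 listed. No listed miRNA falls below the minimum, so a fit without one was not run. With 1 library left in a group, limma assumes that it varies like the others.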
